A study of Pinellia ternata with 6 samples.

Results

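Levels of 5 unigenes of the plant cell wall were followed in seedlings of *Pinellia ternata*, where a unigene is a gene-level unit of a de novo transcript assembly. TRINITY_DN24906_c0_g1 and TRINITY_DN50606_c0_g3 are from the list for the GO term cell wall modification, TRINITY_DN16527_c0_g2 and TRINITY_DN1388_c0_g1 are from the list for xyloglucan metabolic process, and TRINITY_DN408_c0_g1 is the unigene annotated as a glucan endo-1,3-beta-glucosidase of the GN1_2_3 class. They are 5 of the 62591 unigenes in the table analysed. The first 4 were picked as the unigenes with the largest difference between the lines in each direction among the measured members of their lists. This holds on the log2(FPKM + 1) scale, and in FPKM other unigenes of the lists differed more. TRINITY_DN408_c0_g1 was picked because it was reported as higher in T2Plus line. All 5 were thus chosen by their difference between the lines in these samples, and their levels are given below as a description, with no test. All 5 passed the filter that a unigene had to meet to be tested, at least 1 FPKM in 3 of the 6 samples, which TRINITY_DN24906_c0_g1 met through its T2Plus samples.

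Plant cell walls hold cellulose in a matrix of hemicelluloses and pectins. Xyloglucan, a hemicellulose that tethers cellulose, is cut and rejoined by enzymes while a wall extends, and pectins are made softer or stiffer by enzymes that remove their methyl groups or cleave their chains. Glucan endo-1,3-beta-glucosidases, also called beta-1,3-glucanases, cleave callose and related glucans, and plants make them during growth and in defense.

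The T2 line is an octoploid plant (8x, 2n = 104), and T2Plus line is its 16-ploid derivative (16x, 2n = 208), which was obtained by doubling the chromosomes with colchicine. T2 line is a selection from a single plant, propagated by tissue culture, and it served as the control. Seedlings were collected 30 days after planting, with 3 samples per line. The samples of a line are described in the study as independent biological replicates. The methods also state that 5 seedlings of a group were mixed before grinding, without saying how the mixes relate to the replicates, so that part of the spread between samples could be technical. Levels are FPKM, the fragments mapped to a transcript after scaling by its length and by the size of the library, which can be compared between unigenes because they are scaled by length. They are relative to all mapped RNA of a sample, so that a change in the amount of RNA per cell would not show, and in such bulk tissue fewer cells of a type and less RNA per cell cannot be told apart.

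Replicate 2 of T2 line stood apart from the other samples. Its median level over the 28536 unigenes tested was 1.91 on the log2(FPKM + 1) scale, against 2.22 to 2.31 in the others, and 23270 unigenes reached 1 FPKM in it, against 27546 to 30755. A single read was worth least in this sample, at 0.742 of its worth in replicate 1 of T2 line, and 0.933 to 1.13 of it in the remaining 4. Of 27 unigenes named as chloroplast proteins, 24 were above 0 in every sample, and together they held 0.745% to 0.882% of the summed FPKM in T2 samples and 0.558% to 0.673% in T2Plus samples. Of 43 unigenes whose best protein match is outside the green plants, 33 were above 0 in every sample, at 0.151% to 0.165% of the summed FPKM. The part of the lower chloroplast share in the results below was not tested.

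The 5 unigenes did not balance. Their summed level was 195, 256 and 210 FPKM in replicates 1, 2 and 3 of T2 line, and 105, 106 and 120 FPKM in those of T2Plus line. Every T2Plus sample lay below every T2 sample, and the mean went from 220 ± 31.8 to 110.5 ± 8.28 FPKM (SD, n = 3), which is 50.1% of the T2 level. TRINITY_DN24906_c0_g1, TRINITY_DN16527_c0_g2 and TRINITY_DN408_c0_g1 were higher in T2Plus line by 62.3 FPKM in total, and TRINITY_DN1388_c0_g1 and TRINITY_DN50606_c0_g3 differed by a total of -172 FPKM. The gains thus came to 36.2% of the losses. This balance in FPKM leaves out unigenes of the lists with larger differences in FPKM, since 4 of the 5 stand out on the log2(FPKM + 1) scale. Nearly all of the loss was that of a single unigene, TRINITY_DN1388_c0_g1. Without it, the sum of the other 4 unigenes was 23.5, 24.0 and 24.2 FPKM in T2 line against 78.1, 77.5 and 83.6 FPKM in T2Plus line, so that the direction of the sum was reversed. Without replicate 2 of T2 line, in which the sum of the 5 was highest, the difference between the lines was -92.1 FPKM in place of -109.9 FPKM.

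The make-up of the sum also differed. In T2 line, TRINITY_DN1388_c0_g1 held 88.0%, 90.6% and 88.5% of it in the 3 samples, and TRINITY_DN408_c0_g1 came next on average with 2.96% to 5.52%. In T2Plus line, TRINITY_DN1388_c0_g1 held 25.9%, 26.9% and 30.3%. There TRINITY_DN24906_c0_g1 held 25.04% to 28.04%, TRINITY_DN408_c0_g1 23.4% to 23.9% and TRINITY_DN16527_c0_g2 19.7% to 22.7%. A sum led by a single unigene in T2 line was thus spread over 4 unigenes in T2Plus line. The remaining one, TRINITY_DN50606_c0_g3, held 2.97% to 4.14% in T2 line and 0.905% to 1.48% in T2Plus line.

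**Figure D1:**
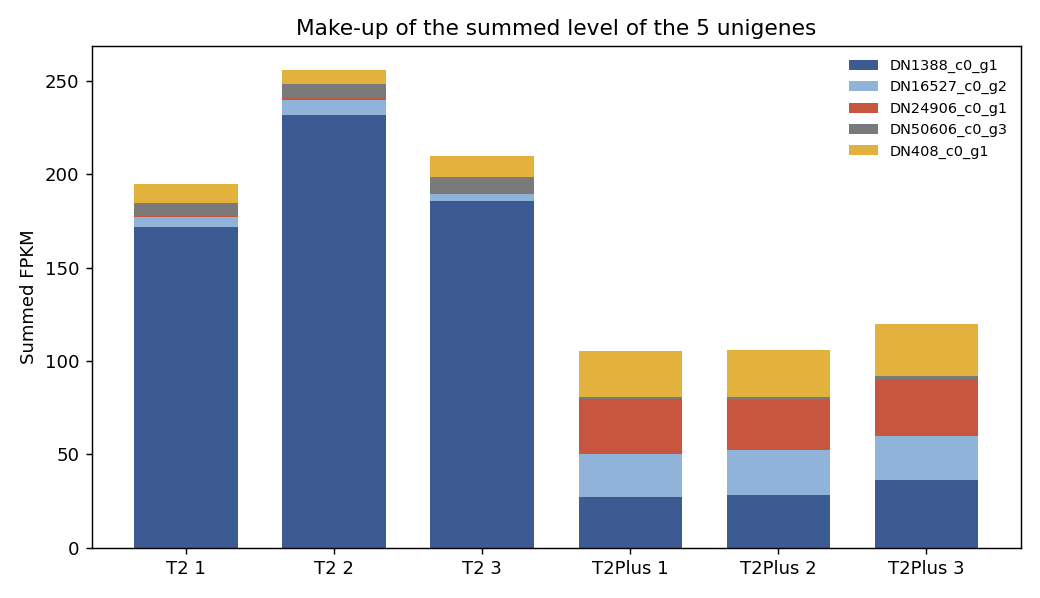
Summed level of the 5 unigenes in each sample, in FPKM, with the part of each unigene stacked; the x axis gives line and replicate. TRINITY_DN1388_c0_g1 fills 88.0% to 90.6% of the T2 bars, and 4 unigenes of similar size fill the T2Plus bars, which are lower.

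Of the xyloglucan unigenes, TRINITY_DN1388_c0_g1 had the highest mean of the 5 in both lines, though TRINITY_DN24906_c0_g1 was above it in replicate 1 of T2Plus line. Its level was 172, 232 and 186 FPKM in replicates 1, 2 and 3 of T2 line and 27.3, 28.5 and 36.4 FPKM in those of T2Plus line. The lines were far apart, and the lowest T2 sample was still 4.71 times the highest T2Plus sample. The mean was 197 ± 31.6 FPKM in T2 line against 30.7 ± 4.96 FPKM in T2Plus line (SD, n = 3), a ratio of 6.39. Its log2 difference, T2Plus line minus T2 line on the log2(FPKM + 1) scale, was -2.64. In T2 line it was above 98.8% of the unigenes tested, and in T2Plus line above 88.9%. TRINITY_DN1388_c0_g1 stands in the lists for xyloglucan and hemicellulose metabolism, but the sources used here do not give it an enzyme name.

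TRINITY_DN16527_c0_g2 is from the same lists and went the other way. It was at 5.50, 7.60 and 3.93 FPKM in T2 line, against 22.9, 24.0 and 23.6 FPKM in T2Plus line. The groups did not overlap, with a mean of 5.68 ± 1.84 FPKM in T2 line against 23.5 ± 0.562 FPKM in T2Plus line (SD, n = 3; a ratio of 4.14). The T2 samples were spread widely and the T2Plus samples closely, with an SD of 32.4% of the mean in T2 line and 2.39% in T2Plus line. Within a sample, TRINITY_DN1388_c0_g1 was 30.5 to 47.3 times as high as TRINITY_DN16527_c0_g2 in T2 line. In T2Plus line this ratio was 1.18 to 1.54, so that these xyloglucan members were much closer in level there, with TRINITY_DN1388_c0_g1 still the higher.

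TRINITY_DN24906_c0_g1 had the largest of the 5 differences on the log2(FPKM + 1) scale, though not in FPKM. It stands in the lists for cell wall modification and for pectin metabolism and catabolism, that is, the breakdown of pectin. In T2 line it was at 0.517 and 1.18 FPKM in replicates 1 and 2 and was listed at 0 in replicate 3, and in T2Plus line it was at 29.6, 26.5 and 30.4 FPKM. It was thus barely detected in the octoploid and had the second highest mean of the 5 unigenes in the 16-ploid line. The mean in T2Plus line was 28.8 ± 2.02 FPKM (SD, n = 3). In T2 line its mean was above 7.52% of the unigenes tested and in T2Plus line above 88.2%. The log2 difference of 4.32 rests on T2 values near 0 and on the 1 FPKM added to each value, and it was 6.07 with 0.1 FPKM added. No ratio is given, since a value listed as 0 may be one that could not be estimated.

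TRINITY_DN50606_c0_g3 is from the lists for cell wall modification and pectin metabolism, and it is not in the list for pectin catabolism. It was the weakest of the 5 in T2Plus line. Its level was 6.87, 7.60 and 8.69 FPKM in T2 line, against 0.954, 1.57 and 1.48 FPKM in T2Plus line. The groups did not overlap, with means of 7.72 ± 0.915 and 1.33 ± 0.330 FPKM (SD, n = 3; 5.80 times higher in T2 line). Set against TRINITY_DN24906_c0_g1 within a sample, it was 13.3 and 6.44 times as high in replicates 1 and 2 of T2 line, and 0.0323 to 0.0590 times as high in T2Plus line. The cell wall modification pair thus changed places between the lines.

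TRINITY_DN408_c0_g1, the beta-1,3-glucanase, had the smallest ratio between the lines of the 5. It was at 10.6, 7.59 and 11.6 FPKM in T2 line, against 24.7, 25.4 and 28.2 FPKM in T2Plus line. Each T2Plus sample was at least 2.13 times each T2 sample, and the means were 9.92 ± 2.08 and 26.1 ± 1.85 FPKM (SD, n = 3; a ratio of 2.63). The lowest of these values was that of replicate 2 of T2 line, the sample that stood apart. Without it the log2 difference was 1.16 in place of 1.33.

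**Figure D2:**
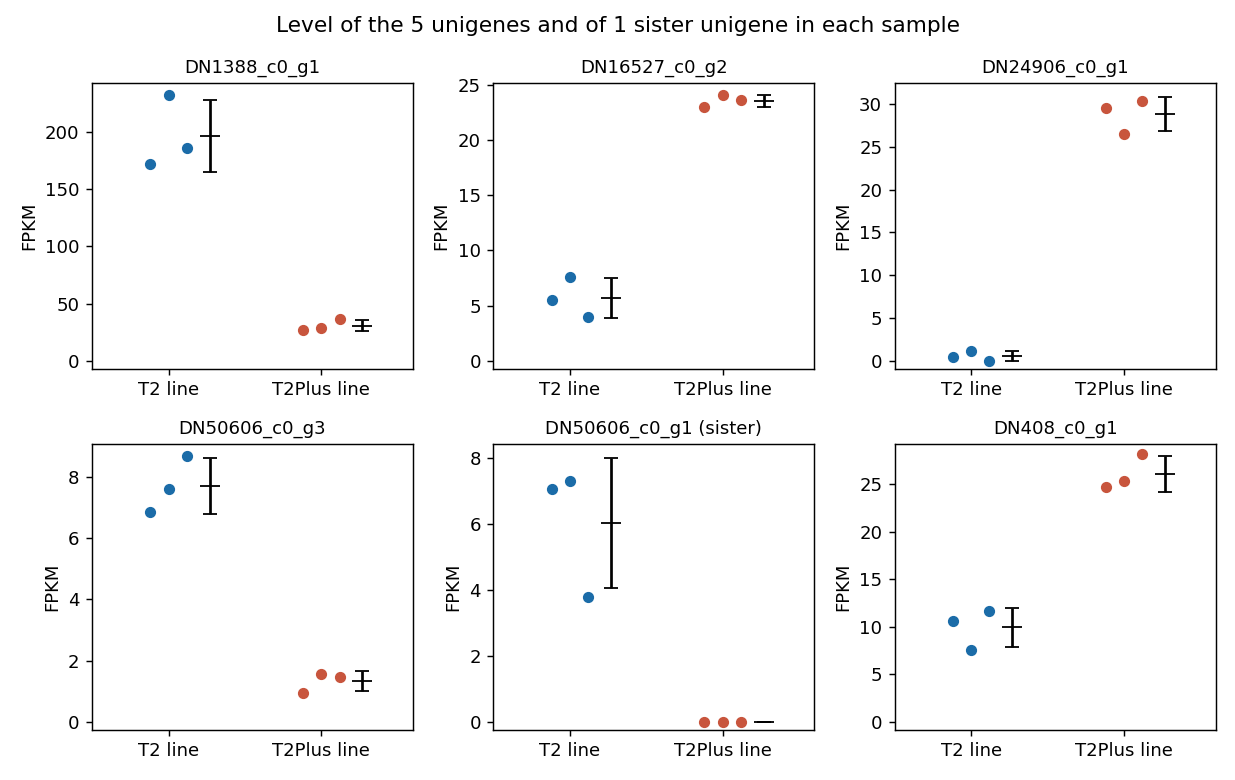
FPKM of each of the 5 unigenes and of the sister unigene TRINITY_DN50606_c0_g1 in the 3 samples of T2 line (blue) and T2Plus line (red), with the mean and SD beside them; each panel has its own scale. In no panel do the lines overlap: 3 unigenes were higher in T2Plus line, and 2 of the 5 and the sister were lower.

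In all 5 unigenes the samples of one line lay wholly above those of the other. This holds for 36.0% of the 28536 unigenes tested, 19.5% with T2Plus line above and 16.4% with it below, and since the 5 were chosen for this difference their count adds nothing to it. Ordered by level in T2 line, TRINITY_DN1388_c0_g1 was followed by TRINITY_DN408_c0_g1, TRINITY_DN50606_c0_g3, TRINITY_DN16527_c0_g2 and TRINITY_DN24906_c0_g1. The samples of TRINITY_DN50606_c0_g3 overlapped with those of TRINITY_DN408_c0_g1 and of TRINITY_DN16527_c0_g2. Those of TRINITY_DN408_c0_g1 and TRINITY_DN16527_c0_g2 overlapped narrowly with each other. In T2Plus line the order was TRINITY_DN1388_c0_g1, TRINITY_DN24906_c0_g1, TRINITY_DN408_c0_g1, TRINITY_DN16527_c0_g2 and TRINITY_DN50606_c0_g3. The first overlapped with the second and the third, and the second with the third, while TRINITY_DN408_c0_g1 and TRINITY_DN16527_c0_g2 did not overlap.

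Each of the 5 unigenes had a single isoform in the table, so that no shift between isoforms could be followed. The isoforms were numbered 7 for TRINITY_DN24906_c0_g1, 2 for TRINITY_DN50606_c0_g3 and 3 for each of the other 3 unigenes. Of the 62591 unigenes, 59934 (95.8%) had a single isoform, and in 16158 of these its number was above 1. A number above 1 is therefore common, and it does not show whether other isoforms were expressed. For 3 of the 5 unigenes, TRINITY_DN1388_c0_g1, TRINITY_DN16527_c0_g2 and TRINITY_DN50606_c0_g3, a unigene-level value was at hand, and the single isoform accounted for it to within 0.245% once a constant for each sample was divided out. For TRINITY_DN24906_c0_g1 and TRINITY_DN408_c0_g1 this was not checked.

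Only TRINITY_DN50606_c0_g3 had a sister in the table, a unigene that the assembly placed in the same cluster of similar sequences. The sister, TRINITY_DN50606_c0_g1, was at 7.06, 7.32 and 3.79 FPKM in T2 line and listed at 0 in all 3 T2Plus samples. It was down-regulated in T2Plus line (adjusted p = 0.00483 from limma, over all unigenes tested), where 6.30% of the unigenes tested were down-regulated. It met the filter through its T2 samples alone and could be tested only because it was high there, so the call adds no support to its values. The sister did not make up for the lower level of TRINITY_DN50606_c0_g3. Together they were at 13.9, 14.9 and 12.5 FPKM in T2 line, and then at 0.954, 1.57 and 1.48 FPKM in T2Plus line, all of it from TRINITY_DN50606_c0_g3 in the latter. In T2 line the sister held 50.7%, 49.1% and 30.3% of this joint level. Further unigenes of the cluster, and sisters of the other members, may lie outside the table, which is a part of the assembly. Sisters can share reads, and it was not tested if they stand for different genes, so the lower levels need not be independent. Of 905 clusters with exactly 2 unigenes tested, 16 had both down-regulated, 10 had both up-regulated and 6 had 1 of each. TRINITY_DN1388_c1_g1, which shares the number of TRINITY_DN1388_c0_g1 and stands in the same list, was not analysed here.

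The other unigenes of the same lists show what surrounded the 5. The study drew up the lists from its own calls in the same samples, and so they cannot serve as separate evidence of a direction. Of 28536 unigenes tested with limma, 7.22% were up-regulated in T2Plus line and 6.30% were down-regulated there, 13.5% in all. A call needed a fold change of 2 or more and an adjusted p (Benjamini-Hochberg) no higher than 0.05. Of the xyloglucan list, 6 of 8 unigenes were in the table analysed and all 6 passed the filter. TRINITY_DN16527_c0_g2 was higher in T2Plus line and TRINITY_DN1388_c0_g1 lower, and neither is counted as a call. Of the other 4, 2 were up-regulated and 2 down-regulated. The median log2 difference of the 6 was -0.42, against 0.0997 over all unigenes tested. Unigenes alike in both lines could not enter the list, so its median cannot show a common shift. The unigene nearest to TRINITY_DN16527_c0_g2 among those higher in T2Plus line was TRINITY_DN24385_c0_g1 (log2 difference 1.40), and the one nearest to TRINITY_DN1388_c0_g1 among those lower was TRINITY_DN60_c0_g2 (-2.07).

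The xyloglucan unigenes that were lower in T2Plus line were 3 of the 4 strongest of the list in T2 line. TRINITY_DN31023_c0_g1 was at 257, 274 and 232 FPKM in T2 line, and then at 44.6, 69.4 and 77.1 FPKM in T2Plus line. TRINITY_DN60_c0_g2 was at 97.4, 147 and 96.2 FPKM in T2 line, and then at 24.6, 27.7 and 24.9 FPKM in T2Plus line. In both, as in TRINITY_DN1388_c0_g1, every T2Plus sample lay well below every T2 sample. TRINITY_DN11289_c0_g1 went the other way at a high level, from 128, 137 and 129 FPKM to 292, 294 and 303 FPKM, and its replicates were the closest of the list. TRINITY_DN24385_c0_g1 went from 11.6, 22.4 and 14.5 FPKM to 44.7, 37.9 and 46.2 FPKM. The adjusted p of these 4 was 5.69e-04 to 0.0109 from limma, which is no separate evidence for unigenes listed by calls in the same samples. Without replicate 1 of T2Plus line, that of TRINITY_DN24385_c0_g1 was 0.0576.

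The equal counts of the xyloglucan list hid unequal amounts. The 3 unigenes that were higher in T2Plus line had a summed level of 153 ± 12.04 FPKM in T2 line against 363 ± 9.18 FPKM in T2Plus line, and the 3 that were lower had 564 ± 77.3 FPKM in T2 line against 120.2 ± 21.5 FPKM in T2Plus line (SD, n = 3). The gains came to 47.3% of the losses, and the sum of the list stood at 67.4% of its T2 level. TRINITY_DN31023_c0_g1 held 35.6% of the sum in T2 line and TRINITY_DN1388_c0_g1 27.3%, while in T2Plus line TRINITY_DN11289_c0_g1 alone held 61.4%. TRINITY_DN16527_c0_g2 was the weakest of the 6 in both lines, with 0.781% and 4.88% of the sum. Without the 2 unigenes of the list that were chosen for their difference, the sum of the other 4 was 493, 580 and 471 FPKM in T2 line against 406, 429 and 452 FPKM in T2Plus line. This was 83.3% of the T2 level, and the groups were separated by the narrow step from 471 to 452 FPKM.

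The wider list for hemicellulose metabolism holds the same 6 unigenes and 3 further tested ones. TRINITY_DN12138_c1_g1 and TRINITY_DN9953_c0_g1 were up-regulated, with means of 11.8 ± 1.98 and 7.11 ± 0.800 FPKM in T2 line and of 43.2 ± 3.07 and 20.4 ± 0.805 FPKM in T2Plus line (SD, n = 3). TRINITY_DN1797_c0_g1 was down-regulated, from 32.9 ± 4.68 to 12.5 ± 1.12 FPKM. The sum of this list stood at 72.7% of its T2 level.

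The cell wall modification and pectin lists went the other way in sum. The sums cover only the unigenes in the table analysed, which is a part of the assembly. Of cell wall modification, 7 of 14 unigenes were in this table and all 7 passed the filter. TRINITY_DN24906_c0_g1 was higher in T2Plus line and TRINITY_DN50606_c0_g3 lower, and neither is counted as a call. Of the other 5, 3 were up-regulated and 2 down-regulated. The median log2 difference of the 7 was 1.12, which for a list drawn from calls in these samples cannot show a common shift. TRINITY_DN40225_c0_g1 was listed at 0 in all 3 T2 samples and reached 8.48, 4.63 and 8.06 FPKM in T2Plus line. TRINITY_DN33163_c2_g1 was also listed at 0 in all 3 T2 samples and reached 3.37, 4.22 and 4.32 FPKM in T2Plus line. They met the filter through their T2Plus samples alone. Like TRINITY_DN24906_c0_g1, they stand in the list for pectin catabolism and were at or near 0 in T2 line. TRINITY_DN4486_c0_g3, which is not in the pectin lists, went from 31.7, 20.1 and 31.9 FPKM to 62.5, 60.4 and 58.8 FPKM and was the strongest unigene of the list in both lines. TRINITY_DN40225_c0_g1 was the nearest to TRINITY_DN24906_c0_g1 among the higher ones, and no fold is given for it since T2 line is at 0. With replicate 2 of T2 line left out TRINITY_DN4486_c0_g3 missed the 2-fold change (log2 difference 0.91), and its adjusted p was 0.0547 from limma without replicate 1 of T2Plus line. Of those that were lower, TRINITY_DN4235_c1_g1 (log2 difference -1.59) was the nearest to TRINITY_DN50606_c0_g3 (-1.91), and TRINITY_DN32614_c1_g1 followed (-1.39).

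The summed level of the 7 unigenes of cell wall modification was 64.9, 50.7 and 62.8 FPKM in T2 line against 112.4, 104.3 and 109.7 FPKM in T2Plus line, which is 183% of the T2 level. Here the gains were larger than the losses, at 71.9 FPKM against a total of -22.6 FPKM. TRINITY_DN24906_c0_g1 made up 1.04% of the sum in T2 line and 26.5% in T2Plus line. Without it and TRINITY_DN50606_c0_g3, the sum of the other 5 was 57.6, 42.0 and 54.1 FPKM in T2 line against 81.9, 76.2 and 77.9 FPKM in T2Plus line, 154% of the T2 level, and the groups still did not overlap.

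For pectin metabolism, 10 of 14 unigenes were in the table and 9 passed the filter, TRINITY_DN24906_c0_g1 and TRINITY_DN50606_c0_g3 included. Of the other 7, 4 were up-regulated and 2 down-regulated. The last, TRINITY_DN42960_c0_g1, fell short of the 2-fold change on the log2(FPKM + 1) scale, while its ratio in FPKM was 2.12. Apart from unigenes already named, TRINITY_DN3879_c0_g4 was up-regulated from 5.0 ± 0.165 to 19.8 ± 2.05 FPKM (SD, n = 3) and TRINITY_DN10510_c0_g1 from 11.2 ± 1.24 to 24.5 ± 2.63 FPKM. TRINITY_DN10510_c0_g1 missed the 2-fold change with either replicate 1 of T2 line or replicate 3 of T2Plus line left out (log2 difference 0.98 in each). TRINITY_DN29370_c0_g1 was at 5.17, 8.62 and 7.60 FPKM in T2 line and listed at 0 in all 3 T2Plus samples, and it met the filter through T2 line alone. The sum of the list was 213% of its T2 level. Within it, different tested unigenes of pectin catabolism held most of their sum in each line. In T2 line TRINITY_DN4235_c1_g1 and TRINITY_DN29370_c0_g1 held 55.9% and 41.0% of it. In T2Plus line TRINITY_DN24906_c0_g1, TRINITY_DN40225_c0_g1 and TRINITY_DN33163_c2_g1 held 68.1%, 16.5% and 9.45%. The pectin catabolism list was drawn from the study's calls in these samples. Unigenes alike in both lines could not enter it, so these shares do not describe pectin catabolism as a whole. For this list, the 5 of 8 unigenes in the table were all tested, and 3 were not analysed here.

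**Figure D3:**
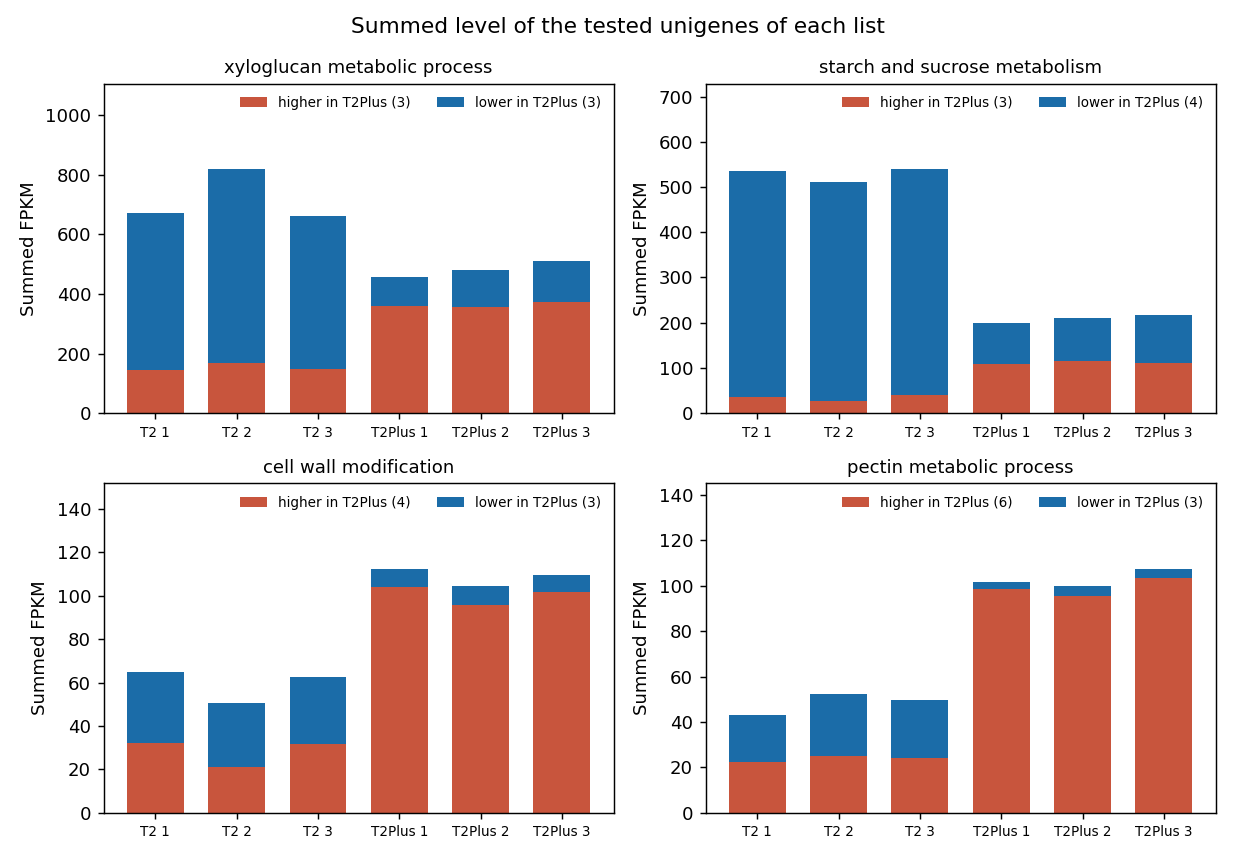
Summed FPKM of the tested unigenes of 4 lists in each sample, split into unigenes with a higher (red) and a lower (blue) mean in T2Plus line, with their numbers in brackets. The sums of the xyloglucan and of the starch and sucrose lists are lower in T2Plus samples, and those of the cell wall modification and pectin lists are higher.

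TRINITY_DN408_c0_g1 stands in the KEGG list for starch and sucrose metabolism, of which 9 of 16 unigenes were in the table analysed and 7 passed the filter. Of the 6 besides TRINITY_DN408_c0_g1, 1 was up-regulated and 4 were down-regulated. The up-regulated one was TRINITY_DN7111_c0_g1, a trehalose 6-phosphate synthase/phosphatase, which makes and dephosphorylates a sugar signal. Its level was 16.0 ± 4.76 FPKM in T2 line against 69.7 ± 4.90 FPKM in T2Plus line (SD, n = 3). TRINITY_DN5539_c0_g1 had the largest difference of the list, from 247, 269 and 246 FPKM to 7.15, 10.2 and 7.25 FPKM (adjusted p = 9.25e-05 from limma). The list was drawn from calls in the same samples, so this p is no separate evidence. TRINITY_DN3834_c0_g1 fell from 172 ± 21.9 to 59.3 ± 8.00 FPKM. TRINITY_DN14151_c1_g1 and TRINITY_DN10883_c0_g1 were down-regulated as well, with log2 differences of -1.31 and -1.07, and TRINITY_DN3097_c0_g1 (0.93) missed the 2-fold change on the log2(FPKM + 1) scale, while its ratio in FPKM was 2.009. With each sample rescaled to the same sum, TRINITY_DN10883_c0_g1 missed the 2-fold change (log2 difference -0.95). The sum of the 7 tested unigenes stood at 39.5% of its T2 level, and TRINITY_DN408_c0_g1 held 1.87% of it in T2 samples and 12.5% in T2Plus samples on average. The endoglucanase TRINITY_DN7933_c1_g1, which is in this list and in cell wall modification, was not analysed here. Nor was TRINITY_DN19188_c0_g1, which the paper names as a trehalose 6-phosphate phosphatase of the same pathway. The paper reported both as higher in T2Plus line, so the sum leaves out unigenes reported to rise.

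**Figure D4:**
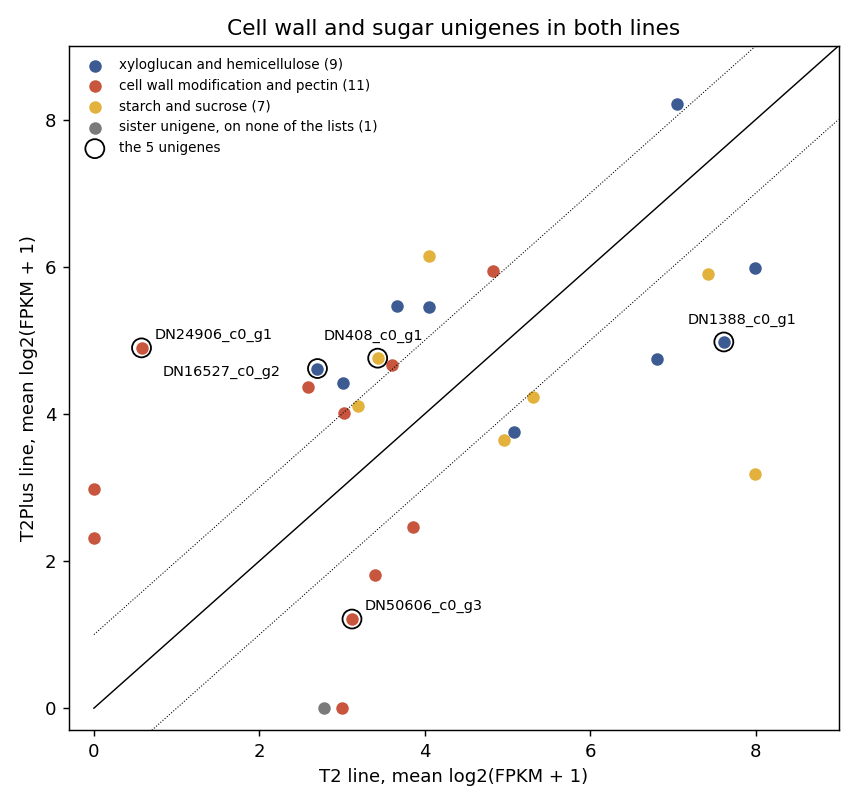
Mean log2(FPKM + 1) in T2 line (x axis) and T2Plus line (y axis) of the 27 tested unigenes of the lists and of the sister unigene; circles mark the 5 unigenes, the solid line equal levels and the dotted lines a 2-fold change on this scale. Blue marks the xyloglucan and hemicellulose lists, red cell wall modification and pectin, yellow starch and sucrose and gray the sister. Of the 4 strongest blue points in T2 line, 3 lie below the lines and TRINITY_DN11289_c0_g1 lies above, and 3 red points lie at or near 0 in T2 line.

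Over the 6 samples, the unigenes whose pattern was most like that of each of the 5 were found by Pearson's r on log2(FPKM + 1). TRINITY_DN1388_c0_g1 was most like TRINITY_DN147_c0_g1 and TRINITY_DN3222_c0_g1 (r = 0.9998 and 0.9992), which were stronger, at 1080 to 1278 and 518 to 659 FPKM in T2 line. TRINITY_DN16527_c0_g2 was most like TRINITY_DN1187_c0_g1 and TRINITY_DN12985_c0_g1 (0.9981 and 0.9978), and the latter was also nearest to TRINITY_DN24906_c0_g1 (0.9989), followed by TRINITY_DN13130_c0_g2 (0.9985). TRINITY_DN50606_c0_g3 was most like TRINITY_DN18533_c0_g1 and TRINITY_DN6575_c0_g1 (0.9996 and 0.9995). TRINITY_DN408_c0_g1 was most like TRINITY_DN12637_c0_g1 (0.999), a unigene named as phytochrome C, a light receptor, and TRINITY_DN33532_c0_g1 (0.9979). Such values are common here, since with 3 samples per line unigenes that differ clearly between the lines yield a high r: an r of at least 0.95 was found with 4.16% to 5.43% of the other unigenes tested. Among the 5, r was 0.885 to 0.995 within the group of 3 that were higher in T2Plus line and 0.986 between the pair that were lower.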

How the data were processed

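RNA-seq libraries of 3 T2 and 3 T2Plus samples were read by the authors on an Illumina instrument. The submitters' notes name Trimmomatic 0.36, FastQC 0.11.5, RSEM and DESeq. The authors built the transcript assembly with Trinity (k-mer 25) and deposited an FPKM value per isoform and sample, estimated with RSEM and scaled between samples by TMM. The name FPKM follows the paper, and the file alone does not settle it against TPM. For the aligner, and for the versions of Trinity and RSEM, no source used here gives a name or number.

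The table holds 65535 isoforms and is a part of the assembly. The isoforms of a unigene were added up. A unigene entered the test where 3 or more of the 6 samples reached 1 FPKM. limma 3.58.1 (R 4.3.3) was fitted to log2(FPKM + 1) values with its trend option, with p-values adjusted over all of them by the method of Benjamini and Hochberg. The authors compared the lines with DESeq, which was not run here because it is a test for counts, and FPKM values are not counts. Because 1 FPKM is added, the log2 differences of weak unigenes come out too small. Sums and plots were made with Python 3.11.15, pandas 2.3.3 and matplotlib 3.10.9. FPKM values hold no read totals, so relative depth was read from the most common ratio between samples among isoforms under 1 FPKM in both.

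The members and lists were chosen with earlier results of these data known. The lists are 5 GO terms and 1 KEGG pathway of the study's enrichment table, from which only unigene names were taken. The named unigenes are the 5 members, every unigene that shares the number of a member, the tested unigenes of cell wall modification and xyloglucan metabolism, the called unigenes of the pectin metabolism, hemicellulose and starch and sucrose lists, and the 2 most similar in pattern to each member. TRINITY_DN42960_c0_g1 and TRINITY_DN3097_c0_g1, which were tested and not called, were named after their values were seen. Markers were unigenes with a Swiss-Prot name holding "chloroplastic", or a best match outside the green plants. The alternatives were a pseudocount of 0.1, no filter, a mean of at least 5 FPKM, samples rescaled to a sum of 1000000, the highest isoform, limma without the trend, the replicate number as a block, and each sample left out in turn, with the filter kept as on all samples.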

Additional observations from a re-analysis of the deposited data

How the results depend on the processing

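The summed difference of the 5 unigenes, -109.9 FPKM, lay between -122.5 and -92.1 FPKM with any 1 sample left out and was -168 FPKM with samples brought to a common sum of 1000000, a change of unit by which T2Plus line stood at 55.3% of the T2 level. Without TRINITY_DN1388_c0_g1, an alternative chosen after seeing the data, it was 55.9 FPKM. No member changed direction under any alternative run for it. The members were chosen for their difference and the lines did not overlap in any of them, so this adds no support. The log2 difference of TRINITY_DN24906_c0_g1 was 6.07 with a pseudocount of 0.1 and 4.96 with the rescaling, and that of TRINITY_DN50606_c0_g3 was -2.47 with a pseudocount of 0.1. The rescaling moved the median log2 difference of all unigenes tested from 0.0997 to 0.227.

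Over all unigenes, the 2061 up-regulated and 1799 down-regulated became 1073 and 1142 with no filter, 753 and 1050 where a mean of 5 FPKM was required, and 1169 and 1146 with the replicate block. For samples with the same replicate number, the deviations from the line means had correlations of 0.037, -0.033 and -0.066. Those with unlike numbers had -0.08 to 0.108. The values thus showed no sign of pairing, but with so few samples they cannot exclude a small shared effect. With a mean of at least 5 FPKM, the up-regulated unigenes of cell wall modification went from 4 to 2, since TRINITY_DN33163_c2_g1 and TRINITY_DN40225_c0_g1 were no longer tested, and the sister TRINITY_DN50606_c0_g1 was not tested either. The adjusted p of the sister from limma was 0.00275 to 0.0354 under the other alternatives, and 0.0354 with the replicate block. The sister could be tested only because it was high in T2 line, so these values add no support. Besides the 5, the lists held 20 called unigenes. All of them kept their call and direction under the pseudocount of 0.1, no filter, the highest isoform, limma without the trend and the replicate block. So did the 17 still tested at a mean of at least 5 FPKM. Each of the 20 had a single isoform in the table, so the highest isoform left their values unchanged. With the rescaling 19 of the 20 kept their call, and 18 to 20 did with any 1 sample left out. The lists were drawn from calls in the same samples, so the kept calls describe the settings and add no separate support. The paper gives read totals per sample, but depth was estimated here only as a ratio between samples. The level of TRINITY_DN24906_c0_g1 and other unigenes at or near 0 in a line is limited by depth.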
